A study of Mus musculus with 28 samples.

Results

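The transcripts described here are those of NF-kappa B itself: the 5 genes that encode its DNA-binding subunits (Nfkb1, Nfkb2, Rel, Rela and Relb) and 5 genes that encode proteins of the inhibitor family (Nfkbia, Nfkbib, Nfkbid, Nfkbie and Nfkbiz). They were taken by symbol from the 40021 genes listed in the mRNA-Seq table, and all 10 were found. RPKM, the unit of the table, is the number of reads scaled to the length of the transcript and to the size of the library. Tests were run on the 13164 genes that reached 1 RPKM or more in 5 or more retinas. All 10 members were among the genes tested, and each had an RPKM of at least 1 in 9 or more of the 22 retinas not taken at 4 h, so that none entered through the 4 h retinas alone. Microglia were sorted from 28 single retinas of mice with endotoxin-induced uveitis (EIU), an acute and self-limiting inflammation of the eye, or of naïve mice. The study asked how the microglial transcriptome changes early, at the peak of the cell infiltrate and after the inflammation has resolved. All groups were male heterozygotes of the strain Cx3cr1CreER:R26-tdTomato on C57BL/6, given topical tamoxifen for 3 days at an age of 4 to 5 weeks. The 10 naïve retinas were not injected, whereas the other groups received 10 ng of lipopolysaccharide (LPS) into the vitreous 4 weeks after tamoxifen and were taken 4 h (6 retinas), 18 h (5 retinas) or 2 weeks (7 retinas) later. No retina injected with vehicle is among the samples, so the effects of LPS and of the injection cannot be told apart. The fractalkine receptor gene drives the tamoxifen-dependent Cre, and the sort took live cells with high tdTomato. The labels do not say which retinas are a pair from 1 mouse, so p-values measure the spread between retinas.

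NF-kappa B is a family of dimeric transcription factors that microglia hold in the cytoplasm until a receptor such as toll-like receptor 4 senses LPS. In the classical pathway the IKK complex phosphorylates the inhibitors I kappa B alpha, beta and epsilon (products of Nfkbia, Nfkbib and Nfkbie), which are then degraded, and dimers of p65 (Rela), c-Rel (Rel) and p50 (from Nfkb1) enter the nucleus. The dimers switch on inflammatory genes and also the genes of several of their own inhibitors and precursors, and the newly made inhibitor ends the response. In the noncanonical pathway p100 (from Nfkb2) is processed to p52, which pairs with RelB, whereas the atypical family members I kappa B NS (Nfkbid) and I kappa B zeta (Nfkbiz) act in the nucleus on dimers already bound to DNA.

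The table states between 7510000 and 19700000 alignments per retina. At the median depth of 12650000 alignments, an RPKM of 1 stood for about 20.0 reads (Nfkbia) to 94.4 reads (Rel). These numbers are for the longest coding transcript of each member, and lower values rest on fewer reads. The cDNA of a small number of sorted cells per retina was amplified before sequencing, so reads do not count the transcripts sampled. Higher values are therefore not precise by read number alone, and naïve Rela ran from 0.0432 to 44.4 RPKM. All 12 microglial markers examined (among them P2ry12, Tmem119 and Cx3cr1) were present in every group, with a median summed level of 15098, 11459, 11563 and 19019 RPKM in the naïve, 4 h, 18 h and 2-week groups. Transcripts of photoreceptors were also present throughout, with medians between 1856 and 3570 summed RPKM over 7 markers. The 4 retinas with fewer than 7500 genes at an RPKM of at least 1 were naïve replicates 3 and 4, 18 h replicate 4 and 2-week replicate 1. Of the 10 exact zeros among the members' values, 5 lay in these retinas, and since such a zero can arise in the estimation of transcript levels it is given only as listed at 0.

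Promoter windows from 250 bases before to 50 bases after an annotated start (RefSeq, GRCm38.p6) were at hand for 7 of the 10 members, in 11 windows. They were searched on both strands for the 10-base kappa B consensus, which opens with 3 guanines and ends with 2 cytosines. A match was found in 7 windows of 5 members, against 4.51% of all 32851 windows of the same length. Windows for Nfkb1, Relb and Nfkbiz were not used here. The windows below are shown because their genes changed at 4 h. They read 5′ to 3′ on the strand of the gene, with the kappa B matches in capitals, and a run of 11 capitals holds 2 matches that overlap. A match describes the letters and does not show that the factor binds there.
Nfkbia, chr12:55492598-55492897 (minus strand): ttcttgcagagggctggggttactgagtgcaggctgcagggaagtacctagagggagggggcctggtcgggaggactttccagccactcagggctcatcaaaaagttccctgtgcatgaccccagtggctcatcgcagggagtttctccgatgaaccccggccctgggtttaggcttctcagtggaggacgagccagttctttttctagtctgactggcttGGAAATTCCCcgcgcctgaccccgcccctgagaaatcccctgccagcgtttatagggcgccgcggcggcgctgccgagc
Nfkbie, chr17:45555450-45555749 (plus strand): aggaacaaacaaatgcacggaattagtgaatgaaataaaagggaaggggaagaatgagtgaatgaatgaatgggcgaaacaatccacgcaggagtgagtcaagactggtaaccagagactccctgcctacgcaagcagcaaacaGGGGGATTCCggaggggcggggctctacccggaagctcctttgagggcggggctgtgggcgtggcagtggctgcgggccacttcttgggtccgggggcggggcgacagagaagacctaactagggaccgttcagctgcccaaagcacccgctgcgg
Nfkbid, chr7:30422156-30422455 (plus strand): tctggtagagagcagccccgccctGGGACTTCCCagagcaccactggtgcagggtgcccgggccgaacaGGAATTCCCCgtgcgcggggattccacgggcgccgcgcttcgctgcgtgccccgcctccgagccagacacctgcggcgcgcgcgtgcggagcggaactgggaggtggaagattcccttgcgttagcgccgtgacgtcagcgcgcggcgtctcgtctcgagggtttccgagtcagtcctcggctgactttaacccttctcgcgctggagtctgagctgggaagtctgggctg
Rel, chr11:23770920-23771219 (minus strand): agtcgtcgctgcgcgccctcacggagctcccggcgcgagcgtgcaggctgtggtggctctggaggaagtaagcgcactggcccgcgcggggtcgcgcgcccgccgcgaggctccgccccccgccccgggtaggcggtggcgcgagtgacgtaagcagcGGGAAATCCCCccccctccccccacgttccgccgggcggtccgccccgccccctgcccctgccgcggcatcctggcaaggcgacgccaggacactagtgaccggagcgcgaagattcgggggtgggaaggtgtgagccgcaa
Nfkb2, chr19:46304487-46304786 (plus strand): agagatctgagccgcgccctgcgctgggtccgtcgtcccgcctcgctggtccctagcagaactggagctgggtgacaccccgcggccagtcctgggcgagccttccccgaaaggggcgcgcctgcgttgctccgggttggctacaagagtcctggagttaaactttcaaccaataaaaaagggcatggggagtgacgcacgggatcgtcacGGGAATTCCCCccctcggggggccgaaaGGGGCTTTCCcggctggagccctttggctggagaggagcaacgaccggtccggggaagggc
Nfkbib, chr7:28766595-28766894 (minus strand): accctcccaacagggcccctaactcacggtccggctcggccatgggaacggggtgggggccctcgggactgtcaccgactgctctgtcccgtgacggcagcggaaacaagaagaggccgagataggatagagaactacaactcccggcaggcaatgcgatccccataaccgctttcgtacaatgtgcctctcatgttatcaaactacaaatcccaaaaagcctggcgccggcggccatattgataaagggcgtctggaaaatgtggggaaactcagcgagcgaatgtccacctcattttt
The Nfkbia window held 1 match, GGAAATTCCC, which starts at position -29 relative to the annotated start. In the Nfkbie window GGGGGATTCC starts at position -106, and in the Rel window the overlapping pair starts at -92. The first of 3 Nfkb2 windows held matches at -39, -38 and -11, and its other windows held 2 and 1. These other windows share 65 bases, and the match of the last is 1 of the pair in the window before it, so that the same site stands in both. The second of 3 Nfkbid windows held matches at -226 and -181, and the others held none. The letters of the consensus were not found in the windows of Nfkbib and Rela.

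At 4 h after LPS, 9 of the 10 members rose relative to naïve retinas, against a background of 3.68% of all genes tested that rose and 4.39% that fell. All 5 genes of the inhibitor family, called inhibitors here and below, rose, with a median log2 fold change of 4.21. Of the 5 subunits 4 rose, with a median of 2.71 over the 5. The median over the 10 members was 3.24, and that over all genes tested was -0.11. Rescaling every retina to the same summed RPKM moved the last value to -0.28, and all 10 members stayed higher. Here and below, a gene rose or fell when limma gave a Benjamini-Hochberg adjusted p of at most 0.05 over all genes tested and the fold change was at least 2, and log2 fold changes refer to log2(RPKM + 1), so that for genes with low levels they are smaller than the ratio of RPKM. No member rose or fell at 18 h or at 2 weeks relative to naïve.

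**Figure D1:**
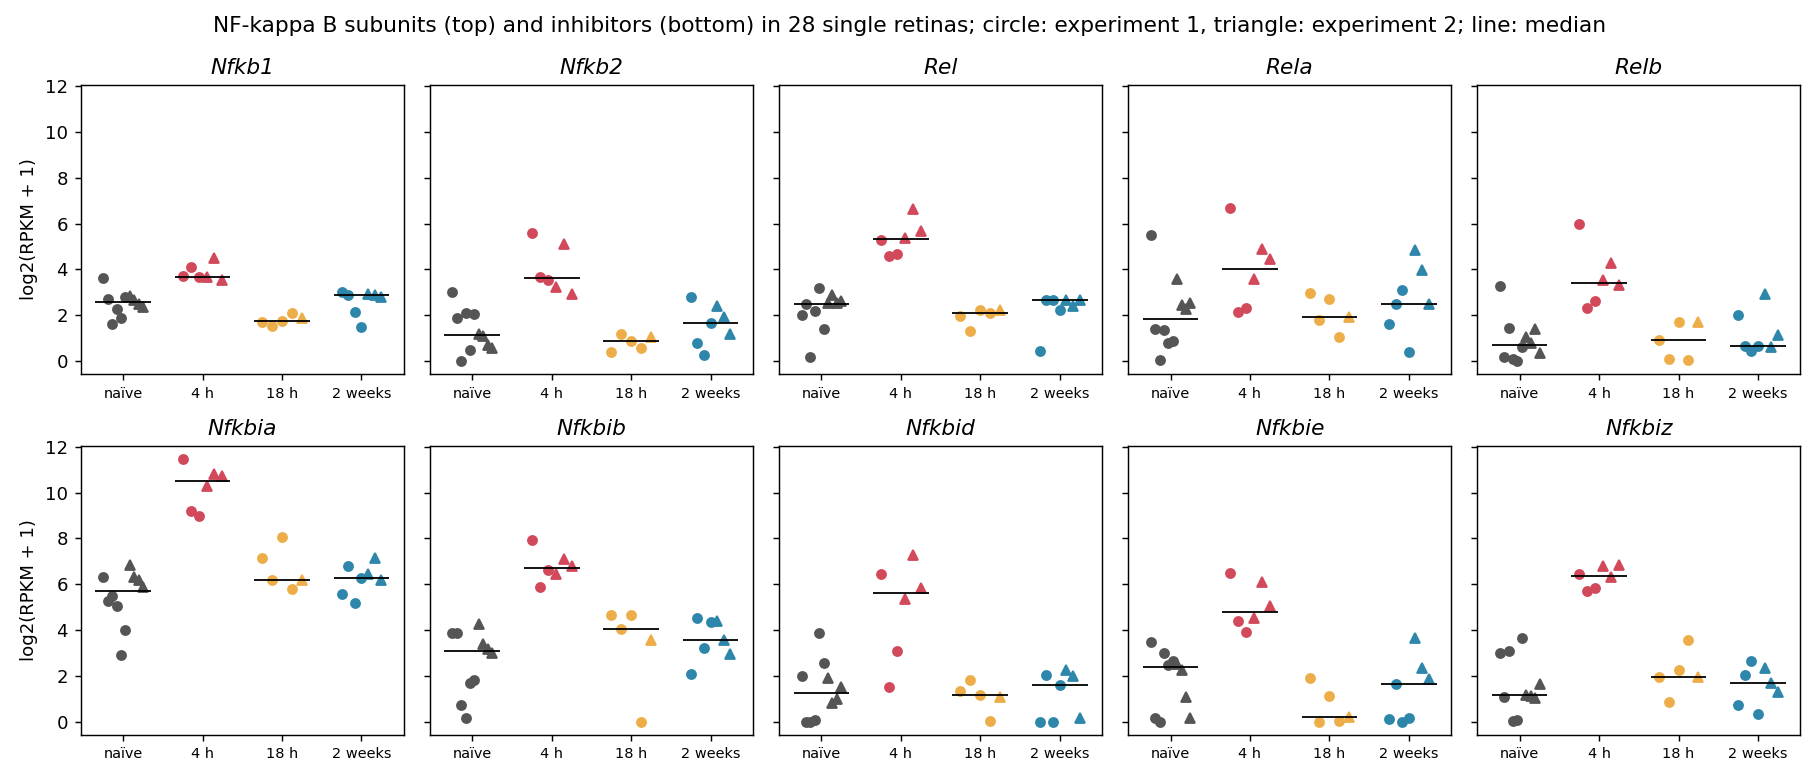
Level of each member in each of the 28 retinas, as log2(RPKM + 1) on the vertical axis, by group on the horizontal axis. Circles are retinas of experiment 1, triangles those of experiment 2, and lines are group medians. The 4 h median lies highest for all 10 members, by the widest margin for Nfkbia and Nfkbiz and with the largest overlap for Rela.

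Among the subunits, Rel had the largest log2 fold change. By the ratio of mean RPKM at 4 h to naïve, Relb was higher, with 12.3 against 10.9 for Rel. Rel encodes c-Rel, the subunit typical of myeloid and lymphoid cells (GRCm38 chr11:23736847-23770970, minus strand). Its level lay between 0.126 and 8.06 RPKM with a median of 4.66 in naïve retinas, and between 23.3 and 99.2 RPKM with a median of 39.2 at 4 h. Every 4 h retina was therefore above every naïve retina. The log2 fold change was 3.18 ± 0.41 (SE) with an adjusted p of 1.21e-06 (limma). At 18 h the 5 retinas had 2.88, 1.49, 3.65, 3.24 and 3.70 RPKM, all inside the naïve range, and at 2 weeks the values ran from 0.352 to 5.41 with a median of 5.26.

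Nfkb2 and Relb, the pair of the noncanonical pathway, had the lowest naïve medians of the members, 1.19 and 0.623 RPKM. Nfkb2 (chr19:46304320-46312385, plus strand) was listed at 0 in 1 naïve retina and reached 7.04 in another, and at 4 h it lay between 6.62 and 46.8 RPKM with a median of 11.2. The highest naïve and the lowest 4 h retina overlapped, and 5 of 6 retinas were above all naïve ones. Its log2 fold change was 2.71 ± 0.45 with an adjusted p of 8.98e-05 (limma). Relb (chr7:19606217-19629438, minus strand) ran from 0 to 8.69 RPKM in naïve retinas, with 4 of 10 at 1 or more, and from 3.90 to 61.8 with a median of 9.71 at 4 h. The overlap came from naïve replicate 1, whose 8.69 RPKM was far from the next naïve value of 1.72, and 4 of 6 retinas at 4 h were above all naïve ones. The log2 fold change was 2.75 ± 0.51 with an adjusted p of 3.23e-04 (limma). At 18 h, Nfkb2 had 0.316, 1.29, 0.817, 0.482 and 1.05 RPKM. Relb had 0.890, 0.0685, 2.21, 0.0227 and 2.23 RPKM at that time. Both genes were again within their naïve range in every 18 h retina, and at 2 weeks their medians were 2.20 and 0.586 RPKM. Nfkb2 overlaps Psd on the other strand over 299 bases, and the mean of Psd was 0.488 RPKM in naïve retinas and 0.779 RPKM at 4 h. Over 1292 bases it also overlaps AC114539.1, a long noncoding RNA gene on the other strand, for which no level was found under that name. The part of these overlaps in the values of Nfkb2 was not tested.

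Nfkb1, which encodes p105 and its product p50 (chr3:135584655-135691547, minus strand), rose least of the 9. It ran from 2.05 to 11.5 RPKM with a median of 4.95 in naïve retinas and from 10.5 to 21.5 with a median of 11.8 at 4 h. Only the highest naïve retina, replicate 1, reached the 4 h range. This was a log2 fold change of 1.34 ± 0.31 with an adjusted p of 0.00369 (limma). At 18 h the values were 2.29, 1.90, 2.32, 3.30 and 2.63 RPKM, in the lower part of the naïve range, with 1 retina below it. The difference from naïve at 18 h was -0.73 ± 0.33 with an unadjusted p of 0.0324 and an adjusted p of 0.227 (limma), which did not pass. The 2-week median was 6.40 RPKM. Gm43430, annotated on the same strand, overlaps Nfkb1 over 3897 bases, and its mean RPKM was 0.306 (naïve), 1.85 (4 h), 0.0530 (18 h) and 1.80 (2 weeks). Reads of these 2 genes cannot be told apart there, and the part of the overlap in the values of Nfkb1 was not tested.

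Rela, which encodes p65, the main activating partner of p50 (chr19:5637483-5648130, plus strand), was the member that did not pass at 4 h. Its level ran from 0.0432 to 44.4 RPKM with a median of 2.70 in naïve retinas and from 3.42 to 101 with a median of 15.9 at 4 h. Naïve replicate 1 was the source of the 44.4 RPKM and the next naïve value was 10.9, so that 1 of 6 retinas at 4 h was above all naïve ones. The log2 fold change was 1.93 with a 95% interval from 0.49 to 3.37 and an adjusted p of 0.091 (limma). Without naïve replicate 1 the log2 fold change was 2.31 with an adjusted p of 0.0177, and with quantile normalisation it was 1.98 with an adjusted p of 0.0436 (limma), both past the threshold. The values at 18 h were 6.88, 2.42, 5.60, 1.07 and 2.74 RPKM, and the 2-week median was 4.59 RPKM.

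Nfkbia, the gene of I kappa B alpha and the classical feedback inhibitor (chr12:55489410-55492647, minus strand), had the largest log2 fold change. Its level ran from 6.49 to 113 RPKM with a median of 50.8 in naïve retinas and from 508 to 2846 with a median of 1481 at 4 h. The groups were far apart, since the lowest 4 h retina was above the highest naïve one. This gave a log2 fold change of 4.82 ± 0.49, or 28.2-fold on that scale, with an adjusted p of 1.31e-08 (limma). The 18 h retinas had 139, 71.6, 269, 53.7 and 70.9 RPKM, of which 2 were above all naïve retinas. The 18 h difference from naïve was 1.24 ± 0.52 with an unadjusted p of 0.0229 and an adjusted p of 0.187 (limma), and did not pass. At 2 weeks Nfkbia lay between 35.2 and 141 RPKM with a median of 77.0.

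Nfkbib, which encodes I kappa B beta (chr7:28758251-28767512, minus strand), rose nearly as far. Naïve retinas ran from 0.104 to 18.2 RPKM with a median of 7.49, and 4 h retinas from 58.5 to 244 with a median of 104. No 4 h retina overlapped with the naïve group, and the log2 fold change was 4.21 ± 0.63 with an adjusted p of 1.52e-05 (limma). At 18 h the values were 24.5, 15.7, 24.3 and 10.9 RPKM in 4 retinas, and replicate 4 was listed at 0. The gene overlaps Sirt2, on the other strand, over 778 bases, and the library kit does not mark strand, so reads of the pair cannot be told apart there. The mean of Sirt2, a deacetylase gene, was 9.22 RPKM in naïve retinas and 11.2 RPKM at 4 h, and the part of the overlap in the values of Nfkbib was not tested. Over another 718 bases the gene overlaps Ccer2, also on the other strand, whose mean was at most 0.0840 RPKM in every group.

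Nfkbie, which encodes I kappa B epsilon (chr17:45555703-45563169, plus strand), ran from 0 to 10.3 RPKM with a median of 4.18 in naïve retinas and from 14.2 to 88.5 with a median of 26.9 at 4 h. All 6 retinas at 4 h were above all naïve ones. Its log2 fold change was 3.29 ± 0.59 with an adjusted p of 2.11e-04 (limma). It had the lowest median of the members at 18 h, 0.146 RPKM, when 2 retinas had 2.71 and 1.20 RPKM, 2 had 0.0364 and 0.146, and 1 was listed at 0. The difference from naïve at 18 h was -1.13 with a 95% interval from -2.40 to 0.14 and an adjusted p of 0.362 (limma).

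Of the atypical members, Nfkbiz (chr16:55811375-55838899, minus strand) had a log2 fold change almost as large as that of Nfkbia. The order of these 2 genes differed between the experiments. Nfkbiz had 4.17 and Nfkbia 5.04 in experiment 1 alone, against 5.41 and 4.31 in experiment 2 alone. The product of Nfkbiz, I kappa B zeta, is made on stimulation and is needed for the induction of a second set of genes. Nfkbiz ran from 0.0224 to 11.6 RPKM with a median of 1.21 in naïve retinas and from 50.6 to 113 with a median of 81.8 at 4 h. The 4 h values were close together and all were above the naïve range. In limma the log2 fold change was 4.73 ± 0.50 with an adjusted p of 3.01e-08 (limma). At 18 h the values were 2.86, 0.831, 3.85, 10.7 and 2.82 RPKM, all within the naïve range, and the 2-week median was 2.24 RPKM.

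Nfkbid, the gene of I kappa B NS (chr7:30421732-30428746, plus strand), rose with a wide spread between the retinas. It was listed at 0 in 2 naïve retinas, had a naïve median of 1.42 RPKM and reached 13.7 in naïve replicate 5. At 4 h it had 87.4, 1.88 and 7.37 RPKM in the 3 retinas of experiment 1 and 40.5, 153 and 56.8 in those of experiment 2. The first set overlapped with naïve retinas in 2 of 3 cases and the second did not overlap. The log2 fold change was 3.55 ± 0.67 with an adjusted p of 4.05e-04 (limma). It was 2.27 with an adjusted p of 0.287 in experiment 1 alone and 4.86 with an adjusted p of 1.66e-04 in experiment 2 alone (limma). The difference between the experiments was 2.59 with a 95% interval from -0.07 to 5.25, an unadjusted p of 0.0559 and an adjusted p of 1 (limma). The 18 h retinas had 1.51, 2.495, 1.23, 0.0375 and 1.09 RPKM.

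**Figure D2:**
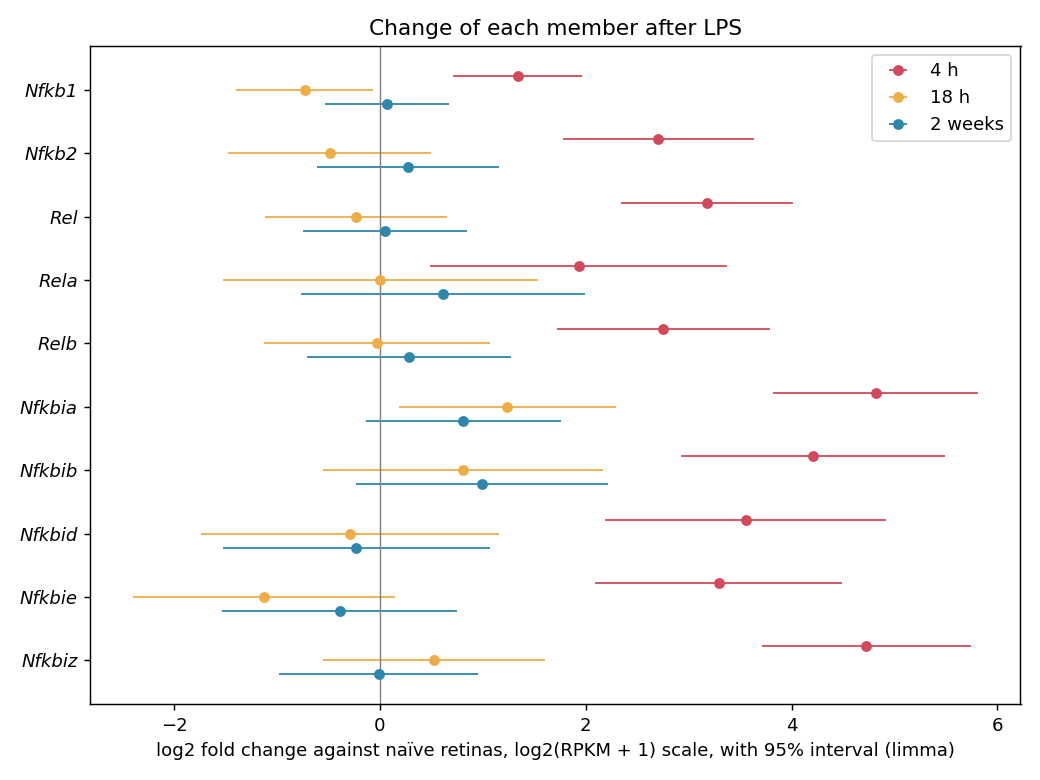
Log2 fold change of each member relative to naïve retinas (horizontal axis, from log2(RPKM + 1)) for the 3 groups after LPS, with 95% intervals from limma. The 4 h points lie between 1.34 (Nfkb1) and 4.82 (Nfkbia), whereas those at 18 h lie between -1.13 and 1.24 and those at 2 weeks between -0.39 and 0.99.

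The 4 h groups of 5 members, namely Rel, Nfkbia, Nfkbib, Nfkbie and Nfkbiz, lay wholly above the naïve group, as did 1.65% of all genes tested. Between the 2 experiments, which the labels give, the change at 4 h kept its direction for all 10 members. In experiment 1 alone, with 6 naïve and 3 injected retinas, Nfkb1 (log2 fold change 1.35, adjusted p = 0.244), Relb (2.70, adjusted p = 0.0742) and Nfkbid no longer passed in limma, and in experiment 2 alone, with 4 and 3, the same 9 members passed as in both. No member differed between the experiments in its change at 4 h by limma, against a background of 0.0076% of genes with a larger and 0.0912% with a smaller change in experiment 2, and none had an unadjusted p under 0.05. Both first retinas stood out among their groups. Naïve replicate 1 had the highest level of 5 members and 4 h replicate 1 that of 6. Without both, the same count of 9 members rose and Rela had a log2 fold change of 1.78. Without the 4 retinas with few genes, 9 members rose as well, with log2 fold changes from 1.19 (Nfkb1) to 4.78 (Nfkbia). These 2 sets were chosen after seeing the data.

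Between 4 h and 18 h, 9 of the 10 members fell, against a background of 2.51% of genes that fell and 2.92% that rose. The comparison shares its 4 h retinas with the one above. The inhibitors fell with a median log2 fold change of -3.84 and the subunits with a median of -2.78. Nfkbie fell by 4.42, Nfkbiz by 4.20 and Nfkbid by 3.84 on the log2 scale, with adjusted p of 5.97e-05, 1e-05 and 0.00195 (limma). Nfkb1 had the smallest fall of the 9, with a log2 fold change of -2.07 and an adjusted p of 2.79e-04 (limma). Rela differed by -1.93 with an adjusted p of 0.215 (limma). In experiment 1 alone 4 members passed, namely Nfkb2, Rel, Nfkbie and Nfkbiz, whereas Nfkbia had a log2 fold change of -3.09 with an adjusted p of 0.0539 (limma). The other 4 that passed with both experiments but not there were Nfkb1 (-2.05), Relb (-2.95), Nfkbib (-3.47) and Nfkbid (-2.60). Experiment 2 holds 1 retina at 18 h, whose spread was taken to equal that of the other groups, and there Nfkb2 (-2.71, adjusted p = 0.051), Relb (-2.01, adjusted p = 0.141) and Rela did not pass in limma, and the other 7 did.

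Against naïve retinas, none of the 10 members rose or fell at 18 h by limma, with a background of 2.84% of genes that rose and 1.85% that fell. Nfkbia and Nfkb1 were the 2 members with an unadjusted p under 0.05, as given above. The inhibitors had a median log2 fold change of 0.52 and the subunits one of -0.23. The intervals were wide, and for Nfkbib the 95% interval ran from -0.56 to 2.16 around 0.80. Within the experiments the difference of Nfkbia was 1.95 in experiment 1 (adjusted p = 0.15) and -0.13 in experiment 2, where 18 h had 1 retina (limma). The markers of T and NK cells, monocytes and neutrophils also had their highest medians at 18 h. The summed level of 8 markers of T and NK cells ran from 7.68 to 96.4 RPKM, against at most 0.658 in naïve retinas, and that of 7 monocyte markers from 0.228 to 49.7, against at most 3.16. Of 9 neutrophil markers, 3 reached an RPKM of 1 in an 18 h retina, and Mpo, Ngp and Ltf were listed at 0 in all 5. Their part in the levels at 18 h was not tested. At 4 h the neutrophil markers summed to at most 0.264 RPKM, the monocyte markers to at most 15.5 and the T and NK cell markers to at most 5.33. The maxima at 2 weeks were 0.547, 26.6 and 1.76 RPKM in the same order. In bulk RNA a change in the share of cells that carry a transcript and a change in the amount per cell cannot be told apart.

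At 2 weeks no member rose or fell relative to naïve by limma, against 0.0076% of genes that rose and 0% that fell, and no member had an unadjusted p under 0.05. The log2 fold changes ran from -0.39 (Nfkbie) to 0.99 (Nfkbib), and the adjusted p was 1 for each. For Nfkb1 the 95% interval of the difference ran from -0.53 to 0.67 and for Rel from -0.74 to 0.85, whereas for Nfkbib it ran from -0.23 to 2.22. Nfkbib lay between 3.26 and 21.8 RPKM with a median of 10.9, and 3 of 7 retinas were above all naïve ones. For Nfkbia and Nfkbie 1 retina each was above all naïve ones, and for Nfkb1 1 was below all. The other members were within their naïve range in every 2-week retina. Compared with 18 h, no member had risen or fallen by 2 weeks, with a background of 1.1% of genes that rose and 1.55% that fell, and Nfkb1 alone had an unadjusted p under 0.05 (0.0285, log2 fold change 0.80, limma).

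RPKM is scaled to the length of the transcript, and the levels of the members are set side by side here as a description. Their longest coding transcripts run from 1578 bases (Nfkbia) to 7466 bases (Rel). Whether the recovery of a transcript depended on its length was not tested. Nfkbia was the highest of the 10 in 27 of 28 retinas, the exception being a naïve one. In naïve retinas the medians followed in the order Nfkbib, Nfkb1, Rel, Nfkbie, Rela, Nfkbid, Nfkbiz, Nfkb2 and Relb, from 7.49 down to 0.623 RPKM, and the range of every gene overlapped with that of its neighbour in this order. At 4 h Nfkbia did not overlap with the next gene, Nfkbib, and below it came the atypical members Nfkbiz and Nfkbid. The 4 highest medians were therefore those of genes of the inhibitor family. Nfkb1 was at rank 3 in naïve retinas and at rank 8 at 4 h, with overlapping neighbours. Of the summed RPKM of the 5 subunits, Nfkb1 made up 32.1% ± 11.4 (SD, n = 10) in naïve retinas and 14.9% ± 8.30 (SD, n = 6) at 4 h, whereas Rel made up 27.0% ± 18.8 and 41.4% ± 13.8.

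The summed RPKM of the 5 inhibitors had medians of 60.8 (naïve), 1767 (4 h), 90.6 (18 h) and 98.9 (2 weeks). For the 5 subunits these medians were 14.7, 89.2, 12.3 and 18.3 RPKM. The ratio of inhibitors to subunits, a description with no test, ran from 1.51 to 13.3 with a median of 4.14 in naïve retinas. At 4 h it ran from 11.0 to 20.9 with a median of 12.6. The inhibitor sum includes Nfkbid and Nfkbiz, whose products act in the nucleus, so the ratio does not measure how far the dimers are inhibited. The ratio at 18 h was 12.9, 12.6, 20.5, 7.94 and 6.95 in the 5 retinas, with a median of 12.6. At 2 weeks it ran from 2.498 to 11.6 with a median of 4.57. The naïve value of 13.3 came from replicate 3, which had few genes and summed subunits of 3.95 RPKM, and the next naïve value was 5.77. All 11 retinas at 4 h and 18 h were above the other 9 naïve retinas. Replicate 3 was set aside here after its value was seen. The lowest ratios at 4 h (11.0) and 18 h (6.95) were below that of replicate 3. In experiment 2 the naïve ratios ran from 4.65 to 5.77, those at 4 h from 11.0 to 20.9, and the 1 retina at 18 h had 6.95. Nfkbia had a median share of the inhibitor sum of 81.2% in naïve retinas and 82.6% at 18 h. Without Nfkbia the median ratios were 0.938 (naïve), 2.68 (4 h), 2.10 (18 h) and 0.780 (2 weeks). The ranges of these ratios overlapped, with 0.452 to 2.08 (naïve), 1.95 to 3.24 (4 h) and 1.21 to 2.66 (18 h).

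**Figure D3:**
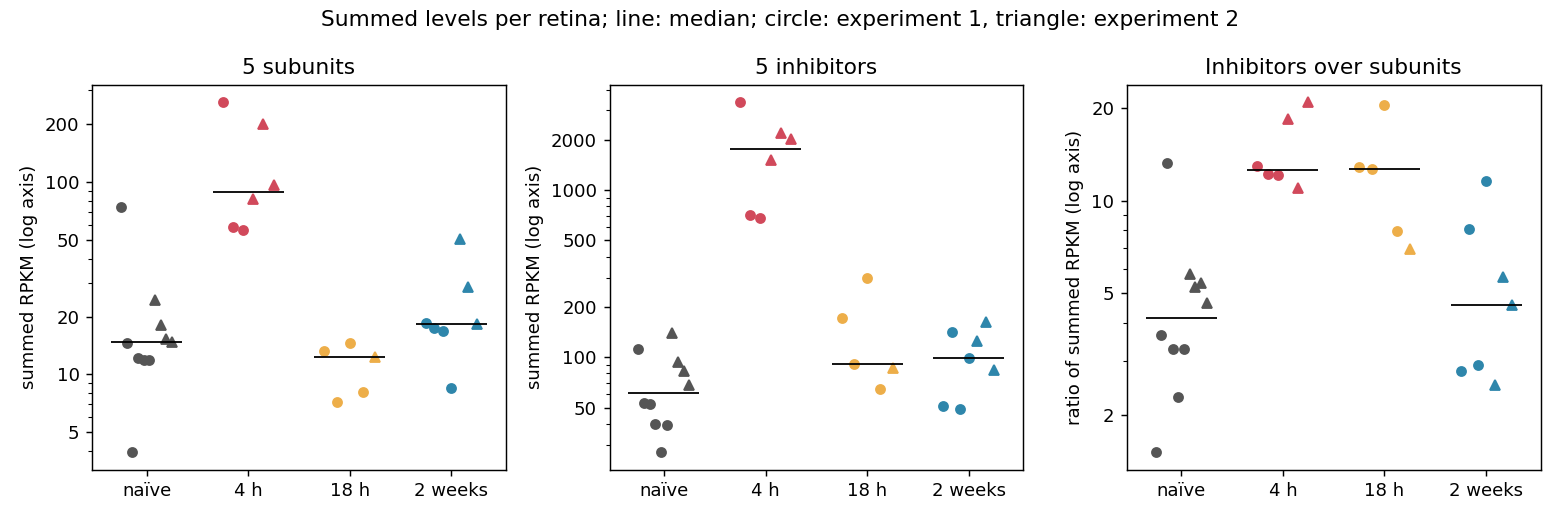
Summed RPKM of the 5 subunits, summed RPKM of the 5 inhibitors, and the ratio of the sums in each retina, all on log axes, by group. Lines are medians, circles experiment 1 and triangles experiment 2. Both sums fall back by 18 h, while the ratio has a median of 12.6 at 4 h and at 18 h and of 4.57 at 2 weeks.

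The genes around the members were described from 8 lists of 110 genes by role, of which 103 were tested and 8 stand in more than 1 list. At 4 h (background 3.68% up, 4.39% down) 2 of 11 kinases and scaffolds of and around the IKK complex rose and none fell. Their median log2 fold change was 0.19 over the 11. The 2 that rose were Tank, a scaffold of the IKK-related kinases (2.10 ± 0.44, adjusted p = 0.00127), and Ikbke, one of those kinases (1.52 ± 0.28, adjusted p = 2.45e-04, limma). Without naïve replicate 3 or 6, 1 gene of this list fell. Of 20 receptor adaptors 5 rose, led by Birc3, a ubiquitin ligase of TNF receptor complexes (3.13 ± 0.44), Malt1, a paracaspase (2.15 ± 0.36), and Irak3, a kinase-like brake on toll-like receptor signals (1.88 ± 0.47). The count of adaptors was 2 with a pseudocount of 10 and 8 with quantile normalisation or without 4 h replicate 2. None of the 8 genes that degrade the inhibitors rose or fell by limma, 2 had an unadjusted p under 0.05, and the median was -0.21. Of 14 nuclear partners of the subunits, Bcl3, another atypical I kappa B protein, rose by 3.79 ± 0.65, whereas the coactivator genes Ncoa3 and Ep300 fell, with -1.50 and -1.31 as log2 fold changes. The count of 2 that fell was 0 with a pseudocount of 10 or in experiment 1 alone, and 4 after rescaling or without 18 h replicate 4.

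Of 14 negative regulators tested, 6 rose and none fell. The deubiquitinating enzyme A20, encoded by Tnfaip3, went from a mean of 4.69 RPKM ± 3.12 (SD, n = 10) to 120 RPKM ± 29.8 (SD, n = 6), a log2 fold change of 4.67 ± 0.51 with an adjusted p of 6.56e-08 (limma). Its binding partners Tnip3 and Tnip1 rose by 4.37 ± 0.57 and 3.37 ± 0.46. Of 10 genes of the noncanonical pathway 4 rose, led by the receptor Cd40 (4.64 ± 0.44), Birc3 and Tnfrsf1b (1.84 ± 0.49), and 1 fell, the receptor gene Tnfrsf11a (-1.29, named after its value was seen). Of these, 2 rose without 4 h replicate 1 or within either experiment, and the number that fell was 0 without 4 h replicate 3 and 2 without naïve replicate 3. Of the lists, the classical targets had the highest median. Both target lists hold genes chosen as known targets, with earlier results of these data known, so their counts are a description. Of 29 classical target genes 26 rose and none fell, with a median of 4.64, led by Tnf (9.26 ± 0.58), Il1b (8.91 ± 0.65) and the chemokine gene Ccl4 (8.73 ± 0.71). All 5 tested genes known to need I kappa B zeta rose, led by Il12b, which encodes a subunit of interleukin 12 and 23 (12.50 ± 0.49), Edn1, endothelin 1 (6.02 ± 0.44), and Ebi3, a subunit of interleukin 27 and 35 (3.70 ± 0.74).

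At 18 h (background 2.84% up, 1.85% down) none of the 14 negative regulators and none of the 10 noncanonical genes rose or fell by limma, and none of them had an unadjusted p under 0.05. Of the 8 genes of inhibitor degradation none passed in limma and 1 had an unadjusted p under 0.05. In contrast, 12 of 29 classical targets were higher than in naïve retinas, led by the chemokine genes Ccl5 (7.64 ± 0.51, adjusted p = 4.06e-12) and Ccl2 (6.94 ± 0.67, adjusted p = 1.38e-08), and so were 4 of the 5 genes that need I kappa B zeta, led by Lcn2, lipocalin 2 (5.54 ± 0.60), and Il12b (4.27 ± 0.52, limma). The count of classical targets was 7 in experiment 1 alone and 3 in experiment 2 alone, which has 1 retina at 18 h, and that of the genes that need I kappa B zeta was 2 in experiment 2 alone. The part of transcripts from T and NK cells, monocytes or neutrophils in the target levels at 18 h was not tested. Ikbke (1.20 ± 0.29) was the 1 kinase and Irak3 (2.08 ± 0.50) the 1 adaptor that passed. No kinase passed without 18 h replicate 1 or 3, and no adaptor without 18 h replicate 3, whereas 2 adaptors did without 18 h replicate 4. Of the nuclear partners Akirin2 and Ep300 were lower, by -1.54 ± 0.45 and -1.19 ± 0.33. This count of 2 moved in 23 of 46 alternatives, to 1 or 0, among them any fit without an 18 h retina or without naïve replicate 1, 3, 6, 7, 8 or 10, and it was 0 within either experiment. At 2 weeks no gene of the 8 lists rose or fell by limma, and between 0 and 2 genes of a list had an unadjusted p under 0.05. The 18 h and 4 h comparisons share the naïve retinas.

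**Figure D4:**
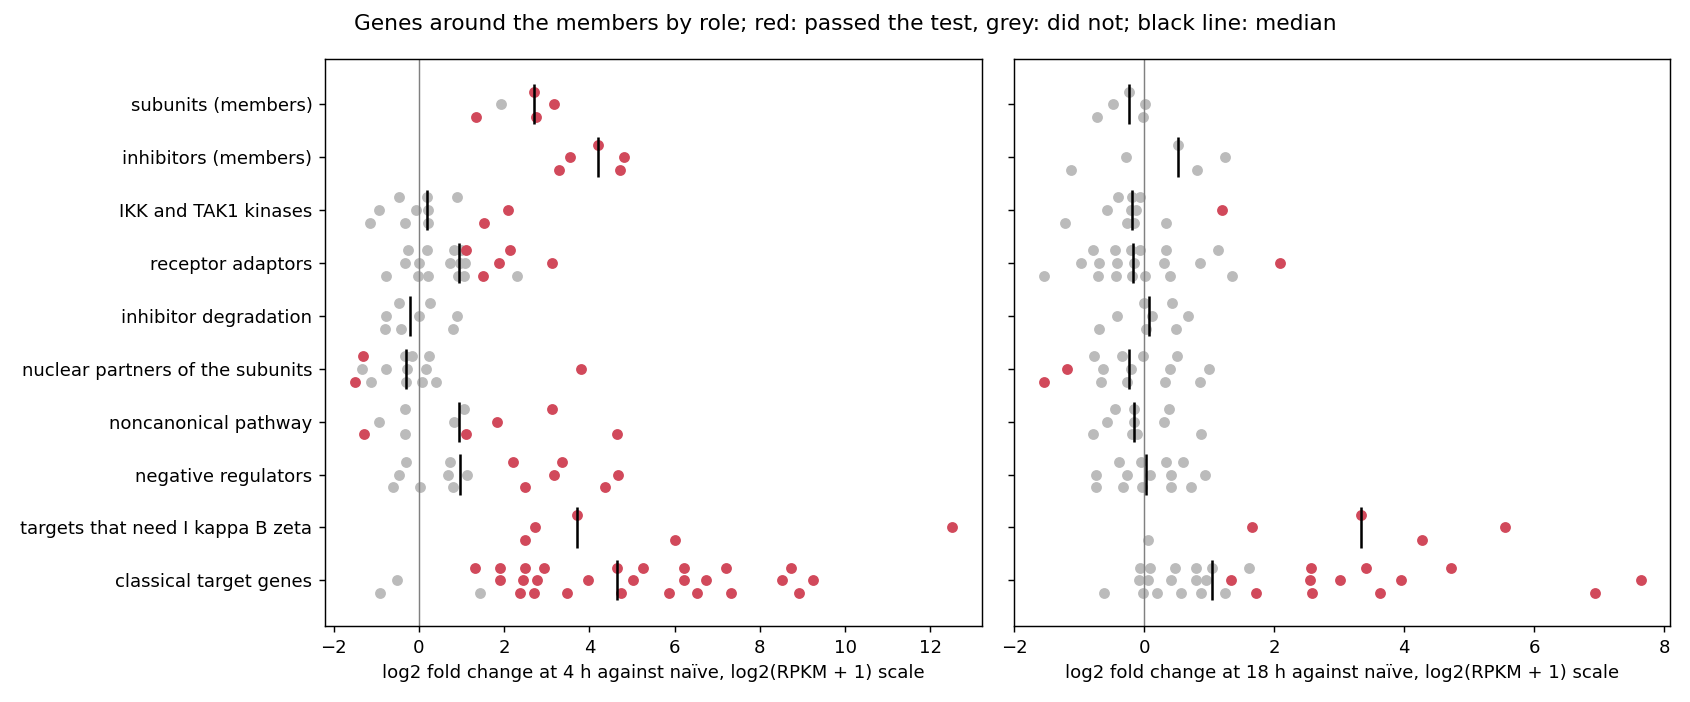
Log2 fold change at 4 h (left) and 18 h (right) relative to naïve of each tested gene, on the log2(RPKM + 1) scale, with the members in the top 2 rows and the 8 lists below. Red points passed the test, grey points did not, and black lines are medians. At 4 h the median is 4.21 for the inhibitors, 4.64 for classical targets and -0.21 for inhibitor degradation. At 18 h the classical targets hold 12 red points and the members none, with a background of 2.84% of genes that rose and 1.85% that fell.

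Across the 28 retinas, all 45 pairs of members correlated positively on the log2(RPKM + 1) scale, with Pearson's r between 0.50 and 0.868 and a median of 0.713. These values are a description, since the retinas share the difference between groups as well as depth and library quality. After the group means were taken out the median was 0.36 and 40 pairs were above 0. The highest pair was Nfkbia with Nfkbib (0.868, and 0.598 within groups). Rel with Nfkbiz had 0.749 over all retinas and -0.162 within groups.

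Of all other genes tested, those with the pattern most like each member over the 28 retinas were listed by Pearson's r. The members differ most between 4 h and the other groups, so this choice favours genes that are also higher at 4 h. A rise of the listed genes at 4 h is therefore not a separate result. Nfkbia was most like Dusp1 (0.948), a phosphatase of MAP kinases, followed by Marcksl1 (0.934) and Ppp1r15a (0.932), a stress-induced phosphatase subunit. For Nfkbib these were Mul1 (0.945), Ppp1r15a and Icosl, and for Nfkbie Icam1 (0.917), an adhesion molecule, Itpkc and Pde4b. Nfkbid was most like Ier2 (0.898), Hivep1 and Kdm6b. The genes nearest to Nfkbiz were Gm10425 (0.882), Dusp16 (0.873) and Tnf (0.87), with an r of -0.007, 0.429 and 0.287 within groups. Rel was most like Il1a (0.942), which held 0.886 within groups, then Kdm6b and Ccrl2. Relb was nearest to Socs3 (0.90), a feedback inhibitor of cytokine receptors, Plekho2 and Mapkapk2, and Nfkb2 to Tnip1 (0.857), Socs3 and Gpr132. Nfkb1 was most like Tnfaip3 (0.857), Pip5k1a and 4930523C07Rik. Rela was most like B4galt3 (0.923, and 0.908 within groups), Afmid and Rabgef1.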

How the data were processed

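Microglial mRNA from 28 single retinas was amplified with SMART-Seq v4 and sequenced. According to the submitters' notes, reads were demultiplexed with bcl2fastq 2.20 and aligned to mm10 with STAR 2.5.3a, and transcripts were quantified in Partek by expectation maximisation. The authors deposited 1 RPKM value per gene and retina. Their tables for 4 h and 18 h hold p-values, ratios and fold changes of their own comparisons and were not used.

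Values were tested as log2(RPKM + 1) with limma 3.58.1 (R 4.3.3), in 1 fit of the 4 groups with the prior variance following the mean level and adjustment by Benjamini-Hochberg, and the difference between experiments in a fit with 1 mean per group and experiment. The procedure was tested on simulated data. Alternatives concerned the pseudocount, filter, scaling, variance model, thresholds, covariates, replicate block, experiments and left-out retinas. Members and lists were chosen with earlier results of these data known. Named genes are the 10 members, the 3 genes most like each by Pearson's r, and of each list the 3 genes with the largest change among those that passed at 4 h and the 2 at 18 h. Gene positions are from GENCODE M21 (GRCm38) and promoters from RefSeq. Summaries and figures used Python 3.11.15.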

Additional observations from a re-analysis of the deposited data

Results flagged for a closer look

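Each of the 40 combinations of a member and a group was examined for a single retina far from the others, and 3 were found, where chance gives about 1 in 20. Relb in naïve replicate 1 was 8.69 RPKM, and the nearest of the other 9 naïve retinas had 1.72. The same retina also had the highest naïve level of Nfkb1, Nfkb2, Rela and Nfkbie. Rel in 2-week replicate 1 was 0.352 RPKM, and the nearest of the other 6 retinas had 3.67. Nfkbib in 18 h replicate 4 was listed at 0, and the nearest of the other 4 retinas had 10.9 RPKM. Both of the latter retinas are among the 4 with fewer than 7500 genes at an RPKM of at least 1.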

How the results depend on the processing

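Over 46 alternatives no log2 fold change of a member that had passed changed its direction. The count of 9 members at 4 h was 9 or 10 when 1 retina was left out, 8 with a pseudocount of 10, where Nfkb1 changed by 0.66, and 6 in experiment 1 alone. Between 4 h and 18 h it was 9 whichever retina was left out, 4 in experiment 1 alone and 7 in experiment 2 alone. With the replicate block 9 members rose at 4 h, 9 fell between 4 h and 18 h and none passed at 18 h or 2 weeks, and the number of all genes that passed went from 1063 to 1076 at 4 h. Some retinas with the same number deviated together and others did not (r from -0.329 to 0.698). In each comparison of groups, 2 or 3 of the 5 to 7 pairs had an r over 0.1. The numbers were not taken to pair the retinas. Of the lists, the 2 nuclear partners lower at 18 h numbered between 0 and 2 over the alternatives, with 23 of 46 below 2, and the 12 classical targets higher at 18 h between 3 and 12. At 4 h the 5 receptor adaptors that rose numbered between 2 and 8, the 4 noncanonical genes between 2 and 5, the 2 kinases between 1 and 2 and the 26 classical targets between 20 and 26. Levels under an RPKM of 1 rest on fewer than about 20.0 to 94.4 reads, depending on the member, and with 5 retinas at 18 h the 95% intervals of the members span more than 1 on the log2 scale.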
